A study of Gossypium hirsutum with 12 samples.

Results

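The genes described here are the abundant genes of cotton fiber whose mean normalized count was nearly the same at 0 and 12 d post-anthesis (DPA). A gene was chosen by its 2 stage means alone: both had to be at least 500, and the 12 DPA mean had to lie between 0.8 and 5/4 (the inverse of 0.8) of the 0 DPA mean. Of 37500 genes in the deposited table, 641 had both means at 500 or above, and 144 of these 641 (22.5%) lay within the window. Since the levels and the ratio chose the genes, both are given below as a description, with no test. The same window held 4518 of the 19357 genes with both means of at least 10 (23.3%).

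RNA came from 6 lines of upland cotton (Gossypium hirsutum), each with 1 library at 0 DPA and 1 at 12 DPA, which gives 6 libraries per stage and 12 in all. Fiber color of the wild-type lines was brown in BCF, green in GCF and white in WCF. The 3 transgenic lines 5#, 6# and 24#, with brown, green and white fibers, were progeny of 1 plant of the brown cotton 'Zong 1282', and carried a hairpin for RNAi of GhCHI-1 (a chalcone isomerase gene) under the CaMV 35S promoter, which drives expression in most plant tissues. The labels name the tissue as cotton fiber, whereas the methods describe ovules and fibers taken at both ages, so the share of ovule cells in each stage is not known. In such tissue, fewer cells of a type and less RNA per cell cannot be told apart.

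The table gives 1 mean per stage over the 6 lines and no value per line. No spread between libraries can therefore be computed, and nothing below is tested against replicates. A line that rose and a line that fell can average to a stable gene, and brown, green, white, wild-type and RNAi lines cannot be told apart. The reference was Gossypium raimondii, whose genome is diploid and related to one parent of the tetraploid upland cotton. Reads of both parental copies of a gene thus fell on the same gene ID where they aligned. How far the reads of each copy aligned is not known. Opposite changes of these copies would also average out. Counts were not divided by transcript length, so a larger count does not show a more abundant transcript, and "level" below always means the mean normalized count.

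Cotton fibers are single cells of the seed coat epidermis. They begin to bulge from the ovule surface at about the day of flowering, and at 12 DPA they elongate fast, building primary wall, membrane and cytoskeleton. Genes with a steady level across such a change are of practical use, because relative measurements such as qRT-PCR are scaled to reference genes taken to be constant. Actin, tubulin, ubiquitin and translation factor genes are frequent choices in plants. Whether a gene is steady is always relative to the scaling of the libraries, and this dependence is described below with the values of the 144 genes.

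**Figure D1:**
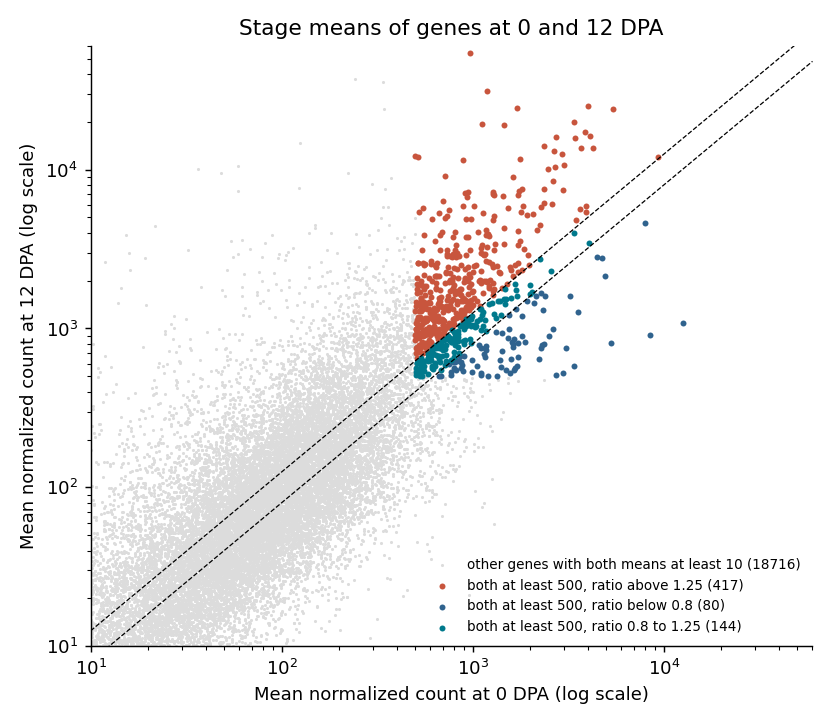
Mean normalized count of each gene at 0 DPA (x axis, log scale) and 12 DPA (y axis, log scale), 1 point per gene with both means of at least 10. The dashed lines are ratios of 0.8 and 5/4, between which the 144 stable abundant genes lie, while 417 abundant genes lie above the window and 80 below it.

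The abundant genes outside the window were mostly higher at 12 DPA. Of the 641, 417 had a ratio above 5/4 and 80 had a ratio below 0.8. The median log2 ratio of 12 over 0 DPA was 0.61 over the 641 abundant genes and -0.02 over the 19357 genes with both means of at least 10. A further 273 genes reached 500 at 0 DPA only and 1144 reached it at 12 DPA only.

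Levels of the 144 genes spanned less than a factor of 10. Their 0 DPA means ran from 503 to 4045, with a median of 772 and quartiles of 615 and 984. Their 12 DPA means ran from 504 to 3998, with a median of 815 and quartiles of 642 and 1059. Most of them sat near the lower limit: 97 had both means under 1000, 14 had 1 mean on each side of 1000, 33 had both at 1000 or above, and 4 had both at 2000 or above.

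At the deposited scaling the ratio within the window was tilted to 12 DPA, as was that of all 641 abundant genes (median log2 ratio 0.61). Of the 144 genes, 97 were higher at 12 DPA and 47 were lower, and the ratio had a median of 1.07, quartiles of 0.963 and 1.15, and a range of 0.806 to 1.249. A ratio between 0.9 and its inverse was found for 73 genes, a lower one for 20 and a higher one for 51. The tilt was alike in both sets of 72 genes split by level: the 72 genes of higher level had a median ratio of 1.07 with 50 above 1, and the 72 of lower level had a median ratio of 1.06 with 47 above 1. On the log2 scale the median ratio of the 144 genes was 0.09.

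Counting error was small beside the window. A mean of 500 rests on about 3385 reads over the 6 libraries at 0 DPA and about 2977 at 12 DPA, as the size factors recovered from the table give it. The 95% counting interval of a log2 ratio had a median half-width of 0.06, and it covers counting error only and takes the 6 libraries of a stage to be at the same level. This interval included a ratio of 1 for 24 genes, lay above 1 for 85 and lay below 1 for 35. It lay within the window for 121 genes, reached below 0.8 for 7 and above 5/4 for 16. How far the 12 libraries themselves scatter around these means is not known.

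**Figure D2:**
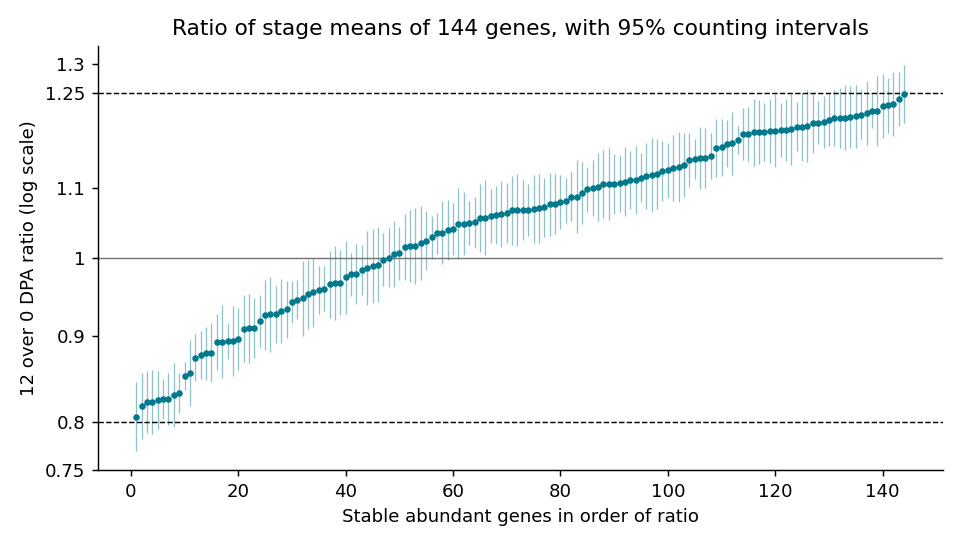
Ratio of the 12 DPA mean to the 0 DPA mean (y axis, log scale) of the 144 genes in order of ratio (x axis). Points are ratios, vertical bars are 95% counting intervals, dashed lines are the limits 0.8 and 5/4, and the grey line is 1; 97 points lie above 1 and 47 below.

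The gene of the highest level was Gorai.013G150300, with a mean of 4045 at 0 DPA and 3447 at 12 DPA. Its ratio was 0.852, with a counting interval of 0.836 to 0.868. The next was Gorai.010G202100, with 3407 at 0 DPA and 3998 at 12 DPA, a ratio of 1.17 with an interval of 1.15 to 1.20. The 2 genes thus exchanged places by count between the stages, and both ratios differed from 1 by more than counting error. None of the 144 gene IDs has a name in the study's supplementary gene tables or in the RefSeq gene table used here. The former list differentially expressed genes, and the latter matched 0 IDs of the deposited table, so this is no trait of the 144. They are given by ID, with no role and no sequence.

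Only 2 further genes had both means above 2000. Gorai.010G031600 had a mean of 2257 at 0 DPA and 2754 at 12 DPA, a ratio of 1.22. Gorai.002G258500 had 2567 and 2292, a ratio of 0.893. These moved in opposite directions as well, and of the 4 genes above 2000 a pair was higher at each stage.

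The fifth to seventh genes by level were all lower at 12 DPA. Gorai.011G224500 had a mean of 1992 at 0 DPA and 1882 at 12 DPA, a ratio of 0.945. Gorai.005G149100 had 2046 and 1689, a ratio of 0.826, and Gorai.005G113800 had 1991 and 1658, a ratio of 0.833. The last 2 lay close to the lower limit of the window, at nearly the same pair of levels.

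The remaining 3 of the 10 leading genes were Gorai.007G285500, Gorai.005G123300 and Gorai.007G003900. Gorai.007G285500 had a mean of 1667 at 0 DPA and 1906 at 12 DPA, a ratio of 1.14. Gorai.005G123300 had 1688 and 1745, a ratio of 1.03, and Gorai.007G003900 had 1709 and 1610, a ratio of 0.942. Of the 10 leading genes, 4 were higher at 12 DPA, against 97 of all 144, and of the 20 leading genes 11 were higher. The 10 leading genes held 17.8% of the summed level of the 144 at 0 DPA and 16.8% at 12 DPA.

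The steadiest genes of high level moved by a few percent. Of the 32 genes with a ratio between 0.95 and its inverse, Gorai.005G123300 had the highest level, and its interval of 1.01 to 1.06 did not include 1. Gorai.005G236500 followed with a mean of 1594 at 0 DPA and 1559 at 12 DPA, a ratio of 0.978 with an interval of 0.9498 to 1.01. Gorai.008G276200 had 1501 and 1544, a ratio of 1.03 with an interval of 0.998 to 1.06. For these last 2 genes the difference between stages was within counting error. The gene nearest to 1 of all 144, named after its values were seen, was Gorai.007G090300, with 837.8 at 0 DPA and 837.9 at 12 DPA.

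The limits of the window cut through a continuous range. Just inside the lower limit lay Gorai.004G062900, with a mean of 682 at 0 DPA and 550 at 12 DPA (ratio 0.806), and Gorai.011G118200, with 719 and 588 (ratio 0.818). Just outside it lay Gorai.009G352200, with 756 and 601 (ratio 0.795), and Gorai.002G251600, with 854 and 670 (ratio 0.785). Counting intervals of genes on either side of this limit overlapped: that of Gorai.004G062900 ran from 0.770 to 0.845 and that of Gorai.009G352200 from 0.761 to 0.831.

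At the upper limit the gap was smaller still. Gorai.002G020200, with a mean of 783 at 0 DPA and 978 at 12 DPA, had a ratio of 1.249 and was inside, as was Gorai.001G213400, with 922 and 1144 (ratio 1.24). Gorai.009G107300, with 581 and 728, had a ratio of 1.252 and was outside, as was Gorai.007G206300, with 695 and 873 (ratio 1.256). At the minimum of 500, Gorai.001G211400 (503 at 0 DPA, 563 at 12 DPA) and Gorai.002G241500 (503 and 511) were inside. Gorai.006G122600 (556 and 499) and Gorai.010G080400 (499 and 595) were outside. Genes next to a limit of the ratio thus differed from those across it by less than their counting error.

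The same level took a lower place among all genes at 12 DPA. At 0 DPA the 144 genes stood between the percentiles 97.6 and 99.97 of the 37500 genes, with a median of 98.9. At 12 DPA they stood between 95.3 and 99.7, with a median of 97.3. Over the same interval the number of genes with a mean of at least 500 went from 914 to 1785. The 144 genes kept their summed level, 131107 at 0 DPA and 136655 at 12 DPA, a ratio of 1.04, while the sum over all genes went from 3044867 to 4870048, a ratio of 1.599. Their share of the stage sum was therefore 4.31% at 0 DPA and 2.81% at 12 DPA. The 641 abundant genes together held 23.4% and 31.2%.

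This sum bears on what "stable" means here. The deposited means had been divided by the authors' size factors, which lay between 0.487 and 1.67 in the 0 DPA libraries and between 0.770 and 1.296 in those of 12 DPA. When each stage was scaled instead by its sum over all genes, every log2 ratio shifted by -0.68, and all 144 genes fell below the window, with ratios of 0.504 to 0.781. The rule then took 254 of 775 abundant genes (32.8%), and 0 of them were among the 144. Relative to all gene reads of a stage, the 144 genes were thus lower at 12 DPA, and relative to the size factors they were level. The deposited table holds no spike-in or RNA amount that could set one scaling above the other, so absolute constancy per cell cannot be told apart from either.

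Between these scalings the outcome was graded. Scaling by the median ratio of all genes with both means of at least 10 shifted the log2 ratios by 0.02, kept 141 of the 144 ratios in the window and put 3 above it. Scaling by the stage sums without the 100 largest genes of either stage, 159 genes in all, shifted them by -0.48, kept 49 ratios in the window and put 95 below it. Scaling by the median ratio of the 641 abundant genes shifted them by -0.61 and kept 7. The order of the 144 genes by ratio is the same under each of these scalings, since each multiplies all ratios by 1 factor. These 3 scalings were chosen after the data had been seen.

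**Figure D3:**
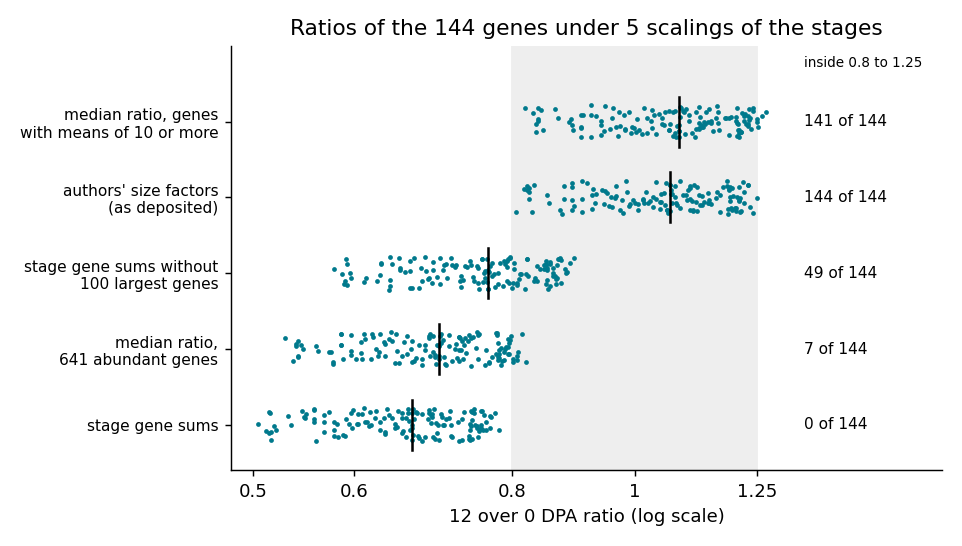
Ratio of 12 over 0 DPA (x axis, log scale) of the 144 genes under 5 scalings of the stages (rows), 1 point per gene with random vertical spread, a black bar at the median, and the window 0.8 to 5/4 in grey. The number of genes inside the window, at the right, goes from 144 as deposited to 0 with stage gene sums. Both of these numbers are fixed by the rule and the shift.

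By the lower of the 2 means, the measure the rule used, the share of genes in the window was between 10.8% and 28.6%, while the balance of the genes outside it turned over. The window held 18.2% of 8092 genes between 10 and 50, 28.6% of 4474 genes between 100 and 250, 23.1% of 480 genes between 500 and 1000, 23.4% of 124 genes between 1000 and 2000, and 4 of 37 genes (10.8%) at 2000 or above. Over the same range the share of genes above the window went from 31.4% to 78.4%, and the share below it from 50.4% to 10.8%. Grouped instead by the mean over both stages, which a large change raises, the window held 13.3% of genes between 500 and 1000, 10.7% between 1000 and 2000, and 4 of 147 (2.72%) at 2000 or above. By the lower mean, stable genes were the second largest class in each bin from 100 up except the last, in which they tied with the genes below the window, and among abundant genes they stood beside a majority of genes that were higher at 12 DPA.

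**Figure D4:**
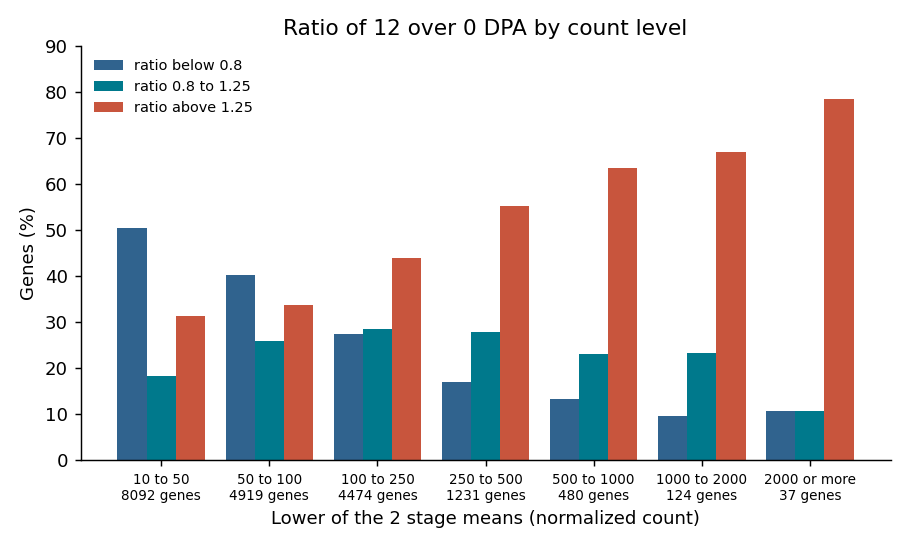
Share of genes (y axis, %) with a 12 over 0 DPA ratio below 0.8, within 0.8 to 5/4 and above 5/4, for genes grouped by the lower of their 2 stage means (x axis, with the number of genes). The share above the window goes from 31.4% in the lowest group to 78.4% in the highest, and the share within it is 10.8% to 28.6%.

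Position in the genome was not used by the rule. Gene IDs give the chromosome number and, by their last digits, the order of genes along it. The 144 genes came from all 13 chromosomes, with 1 gene, Gorai.N017200, whose ID carries no chromosome number. They numbered from 3 on chromosome 3 to 19 on chromosome 7. As a share of the abundant genes of a chromosome, they made up from 9.68% of 31 on chromosome 3 and 12.8% of 47 on chromosome 1 to 28.4% of 67 on chromosome 7 and 28.9% of 45 on chromosome 11, beside 22.5% over all abundant genes. On chromosome 3, the abundant genes had a median log2 ratio of 0.71, and on chromosome 11 of 0.54. The share did not follow this median throughout. Of the numbered chromosomes, the lowest median was 0.48 on chromosome 4, with a share of 20%, and the highest 0.77 on chromosome 6, with 22.8%. With so few genes per chromosome, these shares are given as counts only.

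**Figure D5:**
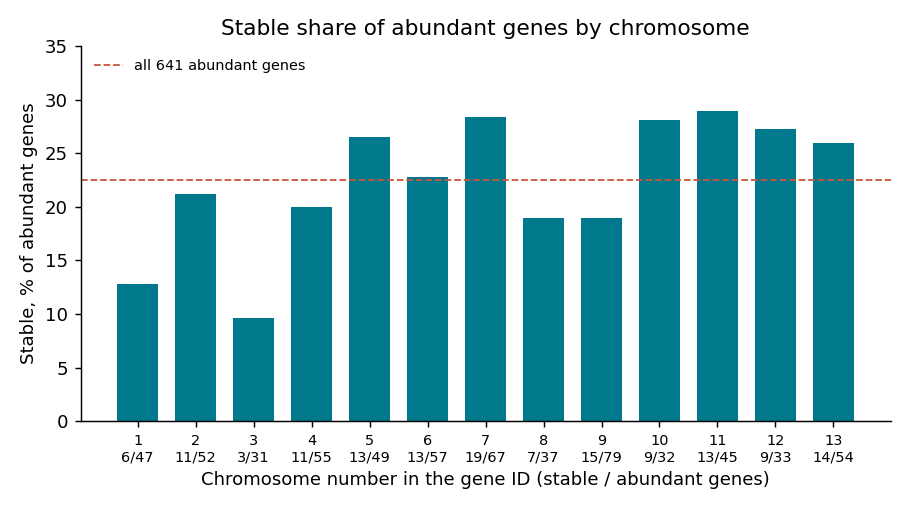
Stable genes as a share of the abundant genes of each chromosome (y axis, %; x axis, chromosome number in the gene ID, with stable and abundant counts under it). The dashed line is the share over all 641 abundant genes; bars run from 9.68% on chromosome 3 to 28.9% on chromosome 11.

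No 2 of the 144 genes had neighboring IDs. Among the 641 abundant genes, 47 (7.33%) were next to another abundant gene. Within their own lists, the same held for 26 (6.24%) of the 417 genes above the window and 7 (8.75%) of the 80 below it. Each share also depends on the size of its list, and the difference was not tested. Within 5 ID numbers there were 4 pairs, or 8 genes (5.56%), against 139 (21.7%) of the abundant genes. The numbers were 70 (16.8%) above the window and 11 (13.75%) below it. The pairs did not share a ratio. Gorai.013G150300, the gene of the highest level, had a ratio of 0.852, and Gorai.013G150700, 4 IDs away, went from 859 to 1056, a ratio of 1.23. Gorai.007G172000 (511 at 0 DPA, 607 at 12 DPA, ratio 1.19) and Gorai.007G172400 (793 and 711, ratio 0.896) also lay on either side of 1. So did Gorai.009G085600 (691 and 668, ratio 0.967) and Gorai.009G085800 (655 and 794, ratio 1.21), and Gorai.004G035900 (525 and 625, ratio 1.19) and Gorai.004G036100 (525 and 518, ratio 0.986).

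Genes next to the 144 had ratios like those of other genes. The table has 286 such neighbor positions. Gorai.004G036000 and Gorai.009G085700, which each lie between a pair of the 144 genes, are counted for each gene of the pair. At 156 positions the neighbor had both means of at least 10, and at 6 it was abundant. Of the 156, 37 (23.7%) lay in the window, 56 (35.9%) above it and 63 (40.4%) below it. Over all 19357 genes with both means of at least 10, these shares were 23.3%, 37.5% and 39.1%.

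A steady gene could lie beside one with a very different ratio. Gorai.013G163400 had a mean of 1399 at 0 DPA and 1222 at 12 DPA, a ratio of 0.873. The next ID, Gorai.013G163500, is paired with a ubiquitin record (UBI1), the small protein that tags others for breakdown, and had 1171 and 4178, a ratio of 3.57. Gorai.009G161300 had 509 and 609, a ratio of 1.20, and its neighbor Gorai.009G161200, paired with the cellulose synthase celA1, a subunit of the enzyme that spins cellulose into the wall, had 104 and 256, a ratio of 2.46. Gorai.012G111400 had 525 and 536, a ratio of 1.02, and its neighbor Gorai.012G111500, paired with the steroid 5-alpha-reductase DET2 of brassinosteroid synthesis, had 50.1 and 568, a ratio of 11.4.

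The other 3 named neighbors were higher at 12 DPA too. Gorai.002G149300 had a mean of 611 at 0 DPA and 583 at 12 DPA, a ratio of 0.954, beside Gorai.002G149400, a proteolipid subunit of the vacuolar H+-ATPase that acidifies the vacuole, with 174 and 2258, a ratio of 13.004. Gorai.011G249300 had 1171 and 967, a ratio of 0.826, beside Gorai.011G249200, a 3-ketoacyl-CoA synthase record of the enzymes that lengthen very-long-chain fatty acids, with 5.80 and 341. Gorai.009G034700 had 582 and 695, a ratio of 1.19, beside Gorai.009G034600, an ultraviolet-B-repressible protein record, with a ratio of 2.06. The study's supplementary gene tables, from which these names come, list mostly genes that rise, so a rising neighbor was more likely to carry a name.

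The same holds for every named gene in the comparison that follows. The paper titles those tables as significantly differentially expressed genes. They hold 4596 genes (12.3% of all genes), 550 with a protein name. Of the 4518 genes within the window with both means of at least 10, they list 65 (1.44%). They include 0 of the 144 stable genes, 0 of the 80 abundant genes below the window, and 123 of the 417 above it, of which 46 have a protein name. The absence of a family from the 144 therefore says nothing on unnamed members of that family, some of which may be among the 144 IDs.

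Among 191 genes of 19 families with a name, 25 were abundant, all 25 had a ratio above 5/4, and 0 were in the window. All 123 abundant genes listed in those tables lay above the window. The lists thus fixed this outcome, and it is no result about the families. Of the 19 families, 13 had an abundant named gene. The families had been chosen with earlier results of these data known, and include the kinds of gene often used as references. The actin ACT2 (Gorai.012G070300), a subunit of actin filaments, had a mean of 729 at 0 DPA and 5080 at 12 DPA, a ratio of 6.97. The 2 abundant genes of the ubiquitin and SUMO family were UBI1, given above, and a SUMO peptide (Gorai.001G095200), with 871 and 2510, a ratio of 2.88.

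The translation family had 2 abundant genes. The ribosomal protein L37a (Gorai.006G214900) had a mean of 1099 at 0 DPA and 2966 at 12 DPA, a ratio of 2.70. The initiation factor 5A (Gorai.006G267400) had 557 and 3898, a ratio of 7.003. Tubulins, the subunits of microtubules that guide wall deposition, had 4 abundant alpha genes with ratios of 2.61 to 26.2, and 1 abundant beta gene, beta-tubulin 4 (Gorai.006G049000), with 636 and 3552, a ratio of 5.58. Each of the actin, ubiquitin, translation and tubulin genes named here was thus more than 2 times as high at 12 DPA at the deposited scaling.

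Of the 25 abundant family genes, the 2 nearest to the window were a sucrose synthase and an alcohol dehydrogenase. Sucrose synthase isoform B (Gorai.010G092300), which splits sucrose into UDP-glucose and fructose, had a mean of 883 at 0 DPA and 1177 at 12 DPA, a ratio of 1.33. Alcohol dehydrogenase 2a (Gorai.005G082400), of fermentation, had 929 and 1481, a ratio of 1.59. Phosphofructokinase (Gorai.005G115600), of glycolysis, had 756 and 2028, a ratio of 2.68, and UDP-glucose pyrophosphorylase (Gorai.007G188400) had 730 and 2935, a ratio of 4.02. When stages were scaled by their gene sums, the first 2 of these were the only genes with a protein name that lay in the window with both means of at least 500.

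In the other families with an abundant named gene, the ratios of these genes were 5.77 for a profilin (PRF2, Gorai.009G028400), 24.4 for the aquaporin PIP2;5 (Gorai.002G002500), 2.57 for a peroxiredoxin (Gorai.004G280800) and 3.78 for the annexin Anx1 (Gorai.007G239000). The S-adenosylmethionine cycle had 3 such genes with ratios of 3.71 to 7.24, and lipid transfer and acyl lipid genes had 4 with ratios of 3.23 to 23.2. Vacuolar proton pumps, mitochondrial ATP supply, heat shock proteins, 14-3-3 proteins, small GTPases and metallothioneins had 0 abundant named genes. No named family gene with both means of at least 10, of 151 such genes, was in the window. Only 4 genes with a protein name, of any kind, lay in it at that minimum.

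Fiber genes had been listed as a check of the tissue, and all those found were higher at 12 DPA. Their names come from the same lists of differentially expressed genes. A level or falling fiber gene could hardly appear there, so the check cannot decide. The alpha expansin EXPA8, which loosens the wall, had a mean of 242 at 0 DPA and 37289 at 12 DPA, and the lipid transfer protein gene FSltp1 had 515 and 11920. TUB1 had 373 and 8812, Fb23 had 42.6 and 542, the fiber-specific protein SCFP had 664 and 2133, and PIP2;1 genes had ratios of 3.65 and 30.5. Profilin genes had 287 and 3871 (PFN2) and 3.17 and 1763. The 144 genes were level, at the deposited scaling, between stages that differed strongly in these listed fiber genes. The part of a change in tissue in the choice of these genes was not tested.

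Another quantity of the table moved with the stage. Alignments of reads that fit more than 1 place numbered 14.2 per gene count at 0 DPA and 1.88 at 12 DPA, and they entered no gene. A read with several alignments can give several entries of the counting tool, so shares of entries are not shares of reads. Gene counts were 6.13% of all entries at 0 DPA and 25.6% at 12 DPA. The part of this difference in the ratios of the 144 genes was not tested.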

How the data were processed

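Poly-A RNA of 12 libraries was sequenced as paired-end reads on a HiSeq 2000. Tools that the authors used, by their processing notes and methods, were FastQC 0.10.1, Trimmomatic 0.32, TopHat2 2.0.13 (the methods name another version) with Bowtie2 2.2.4, SAMtools 0.1.19, HTSeq 0.6.0 and DESeq 1.18.0. Whether strand was used in counting is unknown from the sources at hand, and overlapping genes and near-identical copies are uncertain.

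The deposited values used here are the authors' signal per gene: the mean over both stages and the mean at each stage. Their columns are named RPKM, but they behave as counts divided by size factors: 6 steps were recovered per stage, and whole reads accounted, within 2e-08, for 100% of the low means (up to 1), which numbered 4438 at 0 DPA and 4341 at 12 DPA. Which line has which size factor is not known. The table also holds the authors' own comparison (fold change, its log2, p-value and adjusted p), which was not used. Of its 37505 entries, 5 are summaries of the counting tool. They were left out of all gene sums and make up the rest of the entries beside the gene shares of 6.13% and 25.6%.

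Computed here were ratios, sums, percentiles, the counting interval of each ratio (95%, delta method on the log2 scale) and counts by ID. No test was run, since no value per library was used. The code of the rule was run on simulated ratios without noise. That outcome was fixed in advance, so it checks the code and not how the rule behaves under scatter. Named genes were, by rule, the 10 genes of highest mean, the 3 of highest mean among those nearest to a ratio of 1, those next to each limit, and named family genes with both means of at least 500, up to 3 a family. The members and lists were chosen with earlier results of these data known. Names were taken from the study's supplementary gene tables. The RefSeq table matched 0 of the IDs, and neither coordinates nor sequences are given. Alternatives were other minimums, windows, scalings, denominators, neighbor distances and a pseudocount. Python 3.11.15, numpy 2.4.6, pandas 2.3.3, scipy 1.17.1 and matplotlib 3.10.9 were used.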

Additional observations from a re-analysis of the deposited data

Results flagged for a closer look

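Entries that count no gene, and so enter none of the gene ratios above, differed between the stages. Not-unique alignments, a summary entry of the counting tool, had a mean normalized value of 43229739 at 0 DPA and 9161917 at 12 DPA, 4.72-fold higher at 0 DPA. It made up 87.0% and 48.2% of all entries, which are not shares of reads. Since it is a mean over 6 libraries, whether 1 library or all of them carry the difference is not known.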

How the results depend on the processing

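No leave-one-out and no paired fit could be run. No paired analysis was possible because the values are stage means, with no value per library. The number of stable abundant genes, given above, was 486 at a minimum mean of 250, 33 at 1000, 254 with a window of 2/3 to 1.5 and 73 with a window of 0.9 to its inverse. Their share of abundant genes, 22.5% as deposited, was 26.0% at a minimum of 250 and 20.5% at 1000. With stages scaled by gene sums, by gene sums without the 100 largest genes, and by the median ratio of abundant genes, the numbers were 254, 235 and 231, the shares 32.8%, 31.9% and 31.3%, and the median log2 ratios of the genes chosen as deposited -0.58, -0.39 and -0.51. These differ because each scaling multiplies all ratios by 1 factor. The last 2 scalings, and scaling by the median ratio of genes with both means of at least 10 (141 genes, 22.3%, median 0.12), were chosen after the data had been seen. A pseudocount of 1 left the median at 0.09. Over genes with both means of at least 10, the share of the stage sum was 4.41% at 0 DPA and 2.88% at 12 DPA. Genes near another of them numbered 0 at the next ID and 8 within 5 IDs. Of 22 alternative values, 5 were marked as close to the value as reported and 17 as moved. The 17 include counts at other minimums and windows, which these settings change by themselves. They also include a share that went only from 4.31% to 4.41%, so these numbers do not measure robustness. Depth limits these genes little: the 95% counting interval of a log2 ratio had a median half-width of 0.06, and the spread between libraries is the limit that cannot be measured.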
